A study of Mus musculus with 10 samples.

Results

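The mRNAs described here come from nuclear genes and encode subunits of the oxidative phosphorylation complexes, along with a pair of assembly factors of complex I whose symbols share the Nduf stem. They were taken as every array probe set (a group of short oligonucleotides that reports a single transcript) whose platform annotation gave 1 gene symbol beginning with Nduf, Uqcr, Cox4 to Cox8 or Atp5, or equal to Sdha, Sdhb, Sdhc or Sdhd. The rule found 98 probe sets for 71 genes, of 12422 probe sets that were not controls. Complex I had 42 probe sets for 31 genes, complex II 4 for 4, complex III 7 for 7, complex IV 23 for 15 and complex V 22 for 14. A filter on mean level left 83 of the 98 probe sets, for 68 genes, among 9316 tested in all.

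Oxidative phosphorylation transfers electrons from NADH and succinate through complexes I to IV to oxygen, and complex V uses the resulting proton gradient to make ATP. Complexes I, III, IV and V combine subunits encoded by mitochondrial DNA with subunits encoded in the nucleus, whereas complex II is entirely nuclear. The nuclear mRNAs are translated on cytoplasmic ribosomes, and the proteins are then imported. Fibroblasts use these complexes alongside glycolysis, and some complex IV subunits have separate isoforms in muscle or testis.

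The cells were primary mouse embryonic fibroblasts from C57/BLACK6 embryos labelled e14.5, and every group was ATF1 +/-, so no group had 2 intact copies of this transcription factor gene. No probe set was named for Atf1 alone, and its level was not checked here. Cells were starved for 48 h in 1% dialyzed fetal bovine serum and were then given 1% serum (starved groups) or 10% serum (serum-treated groups) for 2 h. Cytoplasmic RNA without fractionation came from 1 array per serum state. Undertranslated RNA, from sucrose gradient fractions with no ribosome, a single ribosomal subunit or 1 ribosome, and polyribosome RNA, from fractions with 2 or more ribosomes, came from 2 arrays per serum state. The gradient cultures, but not the cytoplasmic ones, received 100 ug/ml cycloheximide, which halts elongating ribosomes, for 30 min. Replicate 2 of each gradient group was labelled with 200 uM 4-thiouridine and 1 uCi of tritiated cytidine, and replicate 1 was not. Mitochondria were spun out before the gradients, and equal fractions of different replicates had been pooled, so p-values measure the spread between these pools, which may be technical.

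Brightness differed between the RNA pools. The median deposited intensity over all probe sets was 5.7 to 8.8 on the 4 undertranslated arrays, 19.1 to 19.2 on the 2 cytoplasmic arrays and 45.3 to 54.2 on the 4 polyribosome arrays. For the oxidative phosphorylation probe sets the medians were 9.95 to 24.6, 64.0 to 71.4 and 157 to 206. A probe set was called above background when it exceeded the brightest of 19 control probe sets for transcripts absent from mouse cells. By this measure 61 to 73 of the 98 probe sets were above background on an undertranslated array, 68 to 77 on a cytoplasmic array and 79 to 81 on a polyribosome array. The dimmest array was replicate 1 of serum-treated undertranslated RNA. The ratio of 3' to 5' probe set intensity of Actb, a sign of RNA length, was 23.6 to 137 in undertranslated, 11.5 to 21.1 in polyribosome and 11.9 to 16.6 in cytoplasmic RNA. The same ratio of Gapdh was lowest in undertranslated RNA, at 3.7 to 6.81, with 6.11 to 20.9 in polyribosome and 28.4 to 47 in cytoplasmic RNA, so the pools had a different order by each gene. All 10 fibroblast markers were above background on every cytoplasmic and polyribosome array.

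The main comparison asked which of these mRNAs lay more in polyribosomes and which more in undertranslated RNA. Differences are given in log2 units of intensity plus 1.5 after quantile normalization, which gives every array the same distribution, so that "higher" or "lower" in polyribosomes means relative to the other probe sets of the array. Of the 83 probe sets tested, 24 were higher and 26 lower in polyribosome RNA (limma, Benjamini-Hochberg adjusted p under 0.05), which is 60.2%. Of all 9316 probe sets, 54.2% were called, 28.7% higher and 25.5% lower. The median difference was -0.09 over the 83 and 0.046 over all. Among the 53 probe sets above background on all 8 gradient arrays, differences ran from -3.17 (Atp5j) to 2.19 (Sdhb). By gene, 20 of 68 were called higher only, 21 lower only, 25 by no probe set, and 2 (Cox6b2 and Atp5d) in both directions by different probe sets.

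The direction of these calls depended on how arrays were scaled. On the deposited scale the median difference of all probe sets was 3.02, and 76 of the 82 oxidative phosphorylation probe sets then past the filter were called higher and none lower, beside 91.9% higher and 0.397% lower among all. Centring each array on its median gave 42 higher and 17 lower, beside 45.5% and 22.6% of all. Scaling on the spiked hybridization controls gave a median over all of 3.33, with 79 higher and none lower, beside 95.1% and 0.311% of all. Of the 26 probe sets called lower after quantile normalization, 6 had a difference above 0 with median centring (Ndufa2, Ndufa5, Ndufc1, Ndufv1, Cox7a2 and Cox7b) and 1, of Atp5d, was not tested there. None of the 24 called higher fell below 0. The order of members within an array does not move with such constant shifts. Under median centring, deposited values and control scaling alike, the median of these mRNAs was 0.32 above that of all probe sets, and under quantile normalization it was 0.14 below it. The order of the complexes had the same ends under quantile normalization and under the other scalings. Those only shift whole arrays, so they give 1 and the same set of differences from the median of all. The complex II median was furthest above the median of all probe sets and the complex IV median furthest below it. Among probe sets above background on all gradient arrays, a restriction chosen after the data were seen, complex II was again furthest above that median, by 2.06 log2 units, but complex III was furthest from it on the lower side (-1.03), followed by complex IV (-0.64). The brightness of the pools and the Actb and Gapdh ratios differed between the pools compared, and their part in the comparison was not tested.

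**Figure D1:**
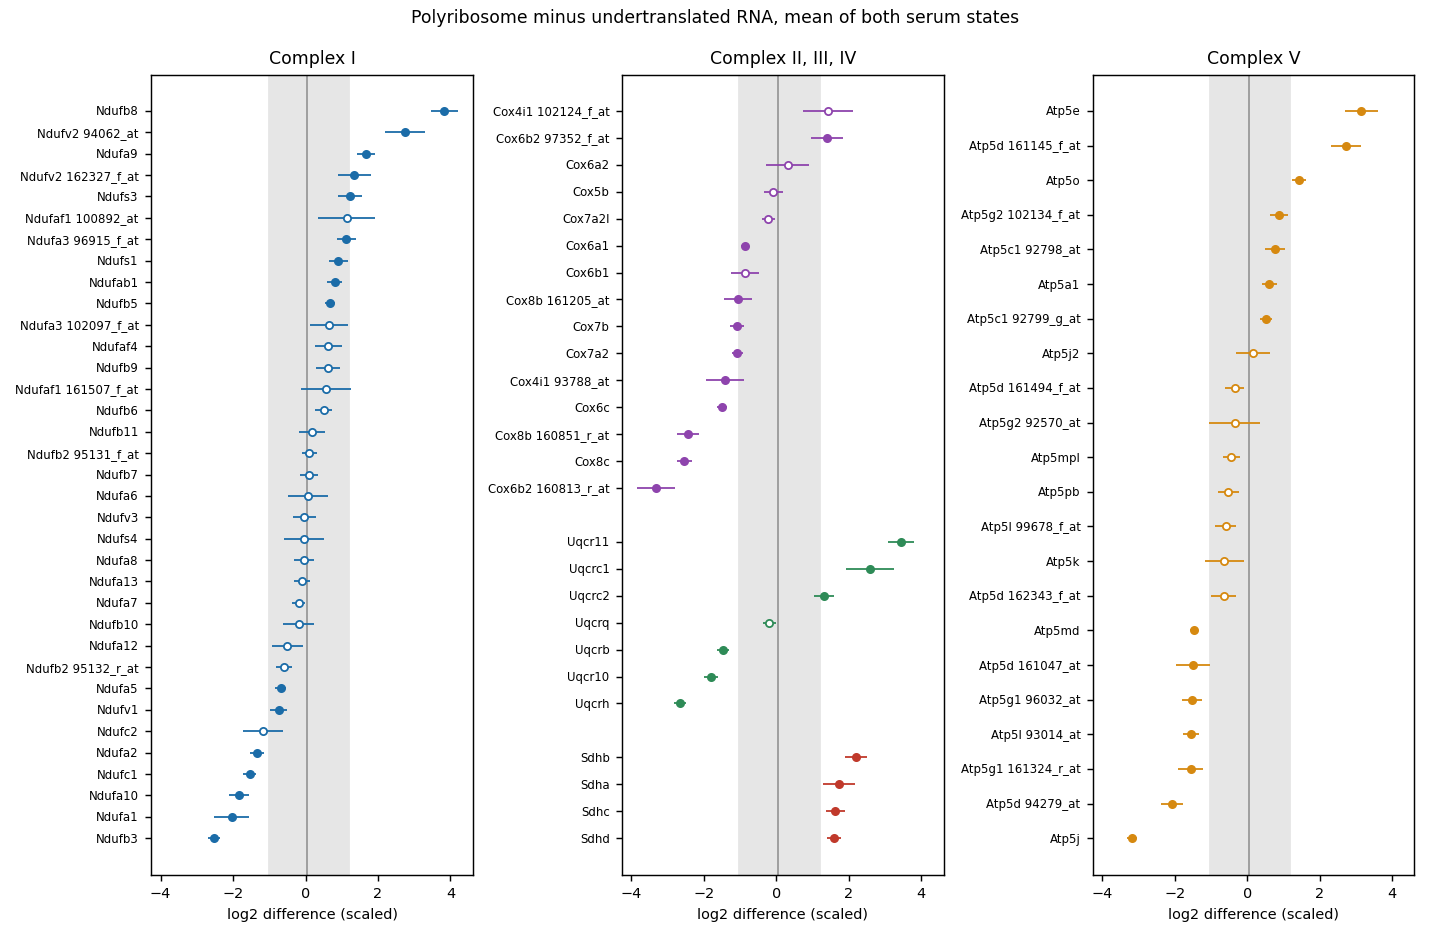
Polyribosome minus undertranslated difference (log2, quantile normalized) of each of the 83 probe sets tested, averaged over both serum states, by complex. Bars are 1 standard error (8 arrays), filled points have adjusted p under 0.05, the line is the median of all 9316 probe sets (0.046) and the grey band their middle range, from the 25th to the 75th percentile (-1.02 to 1.19). All 4 Sdh points lie to the right of the band, and 12 of the 15 Cox points lie left of the line.

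**Figure D2:**
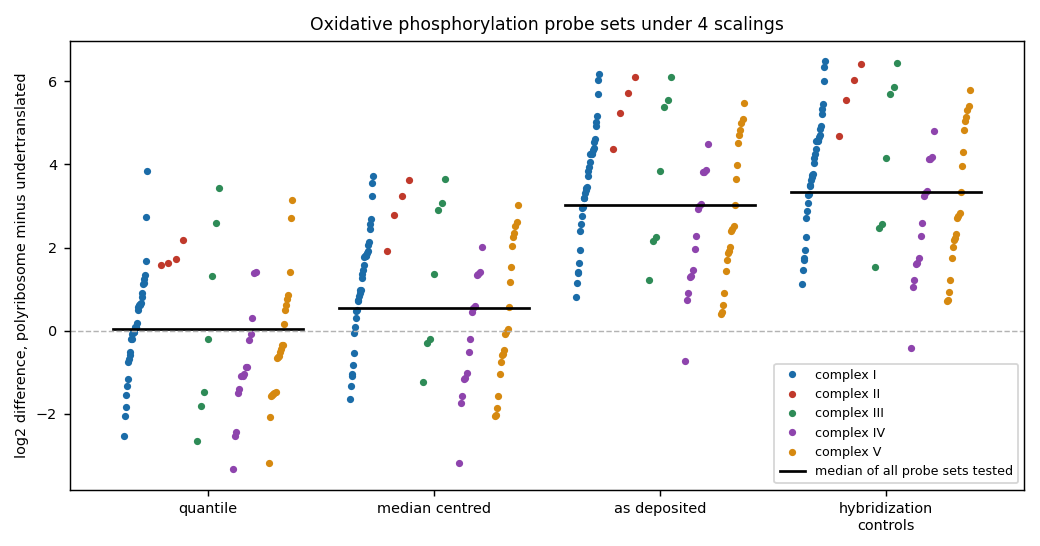
The same difference (log2) under 4 ways of scaling the arrays, with a point per probe set and columns of points for complexes I to V. The black line, the median of all probe sets tested, moves from 0.046 under quantile normalization to 3.33 with hybridization controls, and the complex II points lie above it in each panel position.

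Complex II, succinate dehydrogenase, links the tricarboxylic acid cycle to the respiratory chain. All 4 of its mRNAs were higher in polyribosome RNA, with a median of 1.67 that was 1.65 to 1.78 without single gradient arrays. They were also called higher under each of the 4 scalings. Of all probe sets, these called 28.7% (quantile), 45.5% (median centring), 91.9% (as deposited) and 95.1% (hybridization controls) higher. Sdhb, the iron-sulfur subunit, had deposited intensities of 41.9 and 60.0 in starved undertranslated RNA and 10.2 and 28.1 in serum-treated undertranslated RNA. On polyribosome arrays Sdhb read 2284.6 and 2173.6 (starved) and 1558.8 and 2529.3 (serum-treated), and on cytoplasmic arrays 304.7 (starved) and 258.3 (serum-treated). Every polyribosome value was above every cytoplasmic value, and every cytoplasmic value above every undertranslated one. On the deposited scale, every polyribosome value was above every undertranslated one for 75 of the 83 probe sets and 8027 of all 9316. After scaling, the difference of Sdhb was 2.19 ± 0.31 (SE, adjusted p = 0.000659).

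Sdhc and Sdhd encode the membrane anchor of complex II. Sdhc read 22.9, 27.5, 7.9 and 15.4 on the undertranslated arrays (starved replicates 1 and 2, then serum-treated replicates 1 and 2), and 843.0, 588.9, 535.5 and 862.5 on the polyribosome arrays in the same order. Sdhd read 37.0, 63.7, 27.2 and 39.5 in undertranslated RNA, against 2583.5, 1564.8, 2710.2 and 2065.9 in polyribosomes. The pools did not overlap for either gene on the deposited scale, as for 8027 of all 9316 probe sets. The scaled differences were 1.62 ± 0.26 for Sdhc (adjusted p = 0.00118) and 1.59 ± 0.20 for Sdhd (adjusted p = 0.000377). Sdha, the flavoprotein that oxidizes succinate, was above background on only 1 of 4 undertranslated arrays, where it read 2.7 to 7.3. Its polyribosome values were 132.7 to 162.1 and its difference was 1.73 ± 0.44 (adjusted p = 0.0103).

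Complex I, NADH dehydrogenase, had 35 probe sets tested, of which 9 were higher and 7 lower in polyribosomes relative to the distribution. The counts changed without single gradient arrays, and the median, 0.093 in the full fit, was then -0.12 to 0.31. The share of all probe sets called in those fits is not given here. On the deposited scale 34 were higher and none lower, and with median centring 22 were higher and 5 lower. The core subunits carry the flavin and the iron-sulfur clusters, and of the 4 core genes measured 3 were higher and 1 lower. Ndufs3, a core subunit of the matrix arm, read 37.9, 46.5, 9.9 and 32.4 in undertranslated RNA (starved 1 and 2, serum-treated 1 and 2). On polyribosome arrays Ndufs3 read 1242.0, 1017.9, 789.7 and 1147.6, a difference of 1.24 ± 0.33 (adjusted p = 0.0137). Ndufs1, the largest iron-sulfur subunit, differed by 0.91 ± 0.25 (adjusted p = 0.0152).

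Ndufv2, another iron-sulfur core subunit, was called higher by both of its probe sets, at 2.74 ± 0.56 and 1.35 ± 0.46, each above background on 3 of 4 undertranslated arrays. Ndufv1, which binds NADH, was the core subunit called lower, at -0.74 ± 0.24 (adjusted p = 0.0308). Its deposited values were 89.1 to 124.6 in undertranslated and 932.3 to 1404.2 in polyribosome RNA, a ratio of means of 10.9, against 20.3 for Ndufs1. Both ratios are above 1. The difference of Ndufv1 on the deposited scale was 3.45, above the median of all probe sets, and with median centring it was 0.99, so of the 4 scalings quantile normalization alone put Ndufv1 lower.

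Accessory subunits surround the core of complex I and do not carry redox centres. Ndufa9, which lies beside the quinone site, read 56.0, 76.9, 15.4 and 42.8 in undertranslated RNA and 2599.0, 2302.6, 1884.7 and 2143.6 in polyribosome RNA. Its cytoplasmic values were 437.2 (starved) and 406.2 (serum-treated), between the other pools, and its difference was 1.67 ± 0.24 (adjusted p = 0.000726). Ndufb3, a small membrane arm subunit, read 146.3, 214.9, 66.4 and 147.0 in undertranslated RNA and 453.4, 299.0, 327.0 and 371.8 in polyribosome RNA. The undertranslated values of Ndufb3 were above both cytoplasmic values (138.0 and 125.6) on 3 of 4 arrays, although those arrays were dimmer as a whole. Its difference was -2.52 ± 0.17 (adjusted p = 2.81e-05), and 1.42 on the deposited scale.

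Ndufa10, also a membrane arm subunit, read 29.9, 24.7, 24.5 and 30.8 in undertranslated RNA against 108.2, 90.1, 71.0 and 87.9 in polyribosome RNA, a difference of -1.83 ± 0.28 (adjusted p = 0.000854) that was 1.64 on the deposited scale. Ndufa1, Ndufc1, Ndufa2 and Ndufa5 were also called lower, at -2.04, -1.54, -1.33 and -0.69. With median centring Ndufa1 was -1.65, but Ndufc1, Ndufa2 and Ndufa5 turned to 0.10, 0.30 and 0.84. Ndufb8, a membrane arm subunit, was above background on none of the undertranslated arrays (1.1 to 2.6) and on all polyribosome arrays (158.7 to 401.6). It was at least 3.5-fold higher in polyribosome RNA (adjusted p = 0.00014), where the bound sets the mean of the scaled polyribosome values against the lowest signal above background on each undertranslated array. The differences of accessory subunits of the same complex thus lay on both sides of the median of all probe sets. The assembly factors Ndufaf1 and Ndufaf4, which act during construction and are not subunits, were not called by any probe set tested, with differences of 1.14 ± 0.79 and 0.63 ± 0.38 for the brighter set of each.

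Complex III passes electrons from quinol to cytochrome c. Of its 7 mRNAs, 3 were higher and 3 lower in polyribosomes, with a median of -0.20 that was -0.35 to -0.055 without single gradient arrays. On the deposited scale all 7 were higher. Uqcrc2, a core protein of the matrix side, read 56.3, 62.8, 15.8 and 34.8 in undertranslated RNA and 1777.3, 1668.1, 1122.3 and 2088.7 in polyribosome RNA, a difference of 1.32 ± 0.27 (adjusted p = 0.0036). Uqcrh, the hinge protein that contacts cytochrome c, read 361.7, 598.7, 90.4 and 254.6 in undertranslated RNA and 773.0, 489.3, 671.5 and 595.1 in polyribosome RNA. The pools overlapped for Uqcrh on the deposited scale, since 1 starved undertranslated array was brighter than 2 of the polyribosome arrays. Its difference was -2.66 ± 0.16 (adjusted p = 1.71e-05), and 1.22 on the deposited scale.

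Uqcrc1, the partner of Uqcrc2, differed by 2.59 ± 0.66 (adjusted p = 0.0105), with undertranslated values of 2.5 to 26.9 and polyribosome values of 854.5 to 1171.0. Uqcr11, a small subunit, was above background on no undertranslated array (1.2 to 2.0) and read 120.6 to 169.4 in polyribosomes, at least 2.17-fold higher (adjusted p = 0.000164). The small subunits Uqcr10 and Uqcrb were lower, at -1.80 ± 0.19 and -1.47 ± 0.16, and Uqcrq, another, was not called (-0.20 ± 0.18). The core proteins were thus called higher, and the small subunits were split.

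Complex IV, cytochrome c oxidase, reduces oxygen. Of its 15 probe sets tested 1 was higher and 9 were lower, with a median of -1.05 that was -1.08 to -0.93 without single gradient arrays. On the deposited scale 13 were higher and none lower, with median centring 4 higher and 6 lower, and the complex IV median lay 0.74 below that of all probe sets under each of these. Restricted to the 9 probe sets above background on all 8 gradient arrays, 7 were lower and none higher. This restriction leaves out probe sets seen in polyribosome RNA alone, and the share of all probe sets called under it is not given here. Under it the complex IV median lay 0.64 below that of all probe sets that passed the restriction, and the complex III median 1.03 below. The subunits Cox6c and Cox6a1 were among those lower, at -1.50 ± 0.14 and -0.86 ± 0.11. Cox6c read 1961.2, 2279.3, 1029.0 and 1858.7 in undertranslated RNA (starved 1 and 2, serum-treated 1 and 2) and 4184.8, 3978.0, 4079.9 and 4672.5 in polyribosome RNA. Across these pools Cox6a1 read 445.1 to 1496.6, then 3784.7 to 4634.2, and its deposited-scale difference was 2.28. Cox7b differed by -1.08 ± 0.19, and by 0.59 with median centring.

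Cox5b, which carries a zinc site, had a pool difference close to the median of all probe sets after quantile normalization. With median centring, deposited values and control scaling it was 0.8 above that median. It read 35.4, 35.6, 16.2 and 40.6 in undertranslated RNA, 423.2, 400.7, 402.4 and 577.4 in polyribosome RNA, and 125.6 (starved) and 145.1 (serum-treated) in cytoplasmic RNA. Its scaled difference of -0.081 ± 0.26 was not called (adjusted p = 0.809) and was 3.81 on the deposited scale. Its deposited ratio of pool means was 14.1, against 2.47 for Cox6c.

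Several complex IV subunits have tissue isoforms. Of the isoform pairs, Cox6a1 was lower (above) and Cox6a2, the heart and muscle form, was not called at 0.31 ± 0.60 (adjusted p = 0.69). Cox7a2 was lower at -1.08 ± 0.15 (adjusted p = 0.000641), its relative Cox7a2l was not called at -0.22 ± 0.18 (adjusted p = 0.305), and the muscle form Cox7a1 was above background on no array, with 0.2 to 11. The directions of Cox7a2 and Cox7a2l turned with median centring, to 0.54 and 1.36. Cox6b1 was not called (-0.87 ± 0.38, adjusted p = 0.0819). Cox4i1, the common form of its subunit, was measured by a pair of probe sets that disagreed, at -1.41 ± 0.52 (adjusted p = 0.0473) and 1.42 ± 0.69 (adjusted p = 0.11).

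The probe sets named for testis and muscle forms of complex IV gave some of its most negative differences. Cox8c, a testis form, read 67.9, 78.7, 52.3 and 88.5 in undertranslated RNA, 191.3, 141.9, 216.4 and 172.7 in polyribosome RNA, and 91.7 (starved) and 76.0 (serum-treated) in cytoplasmic RNA. Its difference was -2.54 ± 0.20 (adjusted p = 5.05e-05) and 1.32 on the deposited scale, while its other probe set, at 0.5 to 2.7, was above background on no array. Cox8b, a muscle form, had -2.43 ± 0.30 from 1 probe set, which read 26.0 to 36.7 in undertranslated and 48.2 to 61.3 in polyribosome RNA. Its other probe set was called too (-1.05 ± 0.39) but was above background on no array. Cox6b2, a testis form, was -3.33 ± 0.52 by a probe set above background on 1 of 4 polyribosome arrays, and 1.39 ± 0.44 by another, above background on 1 of 4 undertranslated arrays. The probe sets of Cox8b and of Cox8c therefore did not agree on presence, and those of Cox6b2 did not agree on direction. Both Cox8b probe sets were called lower, and the other Cox8c probe set was not tested. The summed intensity of 9 striated muscle markers was 298 to 369 in cytoplasmic, 45.0 to 102 in undertranslated and 686 to 1010 in polyribosome RNA, with 5 of 9 above background on all polyribosome arrays. Its part in the muscle isoform signals was not tested.

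Complex V, the ATP synthase, joins a catalytic head (F1), a stalk and a membrane ring. Of its 22 probe sets 7 were higher and 7 lower, with a median of -0.48. Leaving out single gradient arrays lowered the count of higher probe sets in most fits and gave medians of -0.55 to -0.38. The share of all probe sets called in those fits is not given here. On the deposited scale 18 were higher and none lower, and with median centring 8 were higher and 5 lower. In the head, Atp5a1 (the alpha subunit) was higher at 0.61 ± 0.21 (adjusted p = 0.035), and Atp5c1 (gamma) was higher by both of its probe sets, at 0.77 ± 0.27 and 0.51 ± 0.17. Atp5a1 read 209.6, 302.6, 44.8 and 189.6 in undertranslated RNA and 3627.6, 3424.2, 3446.5 and 3555.3 in polyribosome RNA. Atp5e (epsilon) was above background on no undertranslated array and at least 1.53-fold higher in polyribosomes.

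The stalk subunits Atp5o and Atp5j bounded the complex V probe sets that were above background on all gradient arrays. Atp5o, which attaches the head to the peripheral stalk, read 63.0, 98.7, 17.3 and 38.9 in undertranslated RNA, 2344.1, 1824.6, 2446.3 and 1859.8 in polyribosome RNA, and 191.5 (starved) and 160.3 (serum-treated) in cytoplasmic RNA. Its difference was 1.42 ± 0.19 (adjusted p = 0.00051). Atp5j, a coupling factor of the same stalk, read 922.3, 1187.7, 255.9 and 619.6 in undertranslated RNA and 1114.8, 729.0, 752.3 and 888.6 in polyribosome RNA. Its cytoplasmic values, 330.7 (starved) and 367.3 (serum-treated), were below 3 of the 4 undertranslated values, and the gradient pools overlapped on the deposited scale. The scaled difference of Atp5j was -3.17 ± 0.14 (adjusted p = 5.43e-06), the smallest adjusted p among these mRNAs, and 0.41 on the deposited scale. The deposited ratio of polyribosome to undertranslated means was 1.33 for Atp5j, 44.7 for Atp5o and 67.9 for Sdhb.

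The membrane ring of complex V is built of subunit c, made from a small gene family. Atp5g1, 1 of its genes, was lower by both probe sets, at -1.52 ± 0.28 (adjusted p = 0.00224) and -1.56 ± 0.35, the latter above background on 2 of 4 undertranslated and 1 of 4 polyribosome arrays. Atp5g2, another, was higher by its brighter probe set at 0.87 ± 0.25 (adjusted p = 0.0179), which read 14.8 to 39.3 in undertranslated and 556.6 to 795.6 in polyribosome RNA. The dimmer Atp5g2 probe set was not called (-0.35 ± 0.70), and on the deposited scale both genes were higher by all of their probe sets. The directions within this family were therefore opposite only relative to the distribution. Among small membrane subunits, Atp5md was lower at -1.47 ± 0.10 (adjusted p = 2.71e-05) and Atp5l at -1.55 ± 0.22 by 1 of 2 probe sets. Atp5md read 2271.9 to 6320.3 in undertranslated and 5203.3 to 6544.8 in polyribosome RNA. Atp5d (delta) had 5 probe sets, of which 1 was lower at -2.07 ± 0.30, 1 lower at -1.49 ± 0.47 (above background on 1 of 4 arrays in each pool), 1 at least 2.26-fold higher, and 2 not called (-0.35 and -0.65), so no direction is given for this gene.

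**Figure D3:**
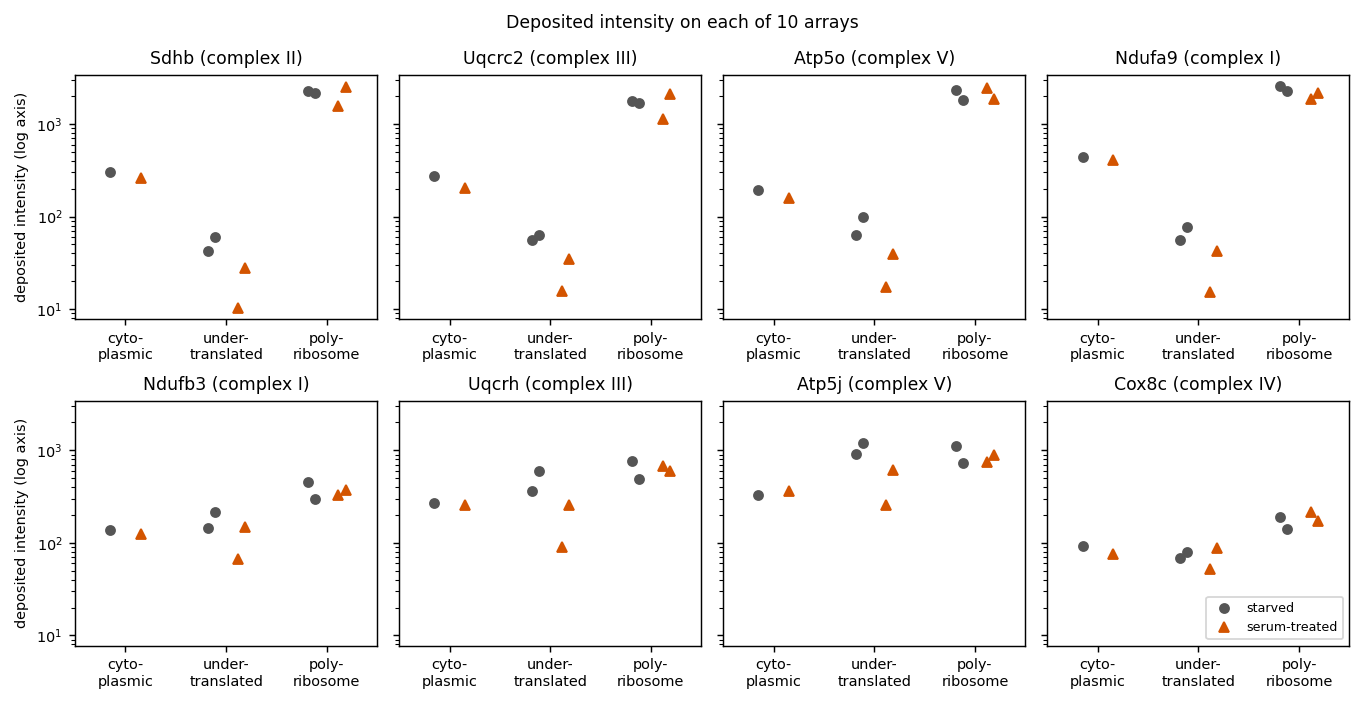
Deposited intensity (log axis) on each of the 10 arrays for 8 genes, with grey circles for starved and orange triangles for serum-treated cells, and a point per array. In the upper row (Sdhb, Uqcrc2, Atp5o, Ndufa9) the polyribosome points lie above the cytoplasmic points and these above the undertranslated points, whereas in the lower row (Ndufb3, Uqcrh, Atp5j, Cox8c) the undertranslated points reach or pass the cytoplasmic ones.

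Within each serum state the same contrast called fewer probe sets. In starved cells 10 of 83 were higher and 20 lower in polyribosomes, with a median of -0.32, beside 28.3% called among all probe sets (14.6% higher, 13.7% lower). In serum-treated cells 20 were higher and 23 lower, with a median of 0.13, beside 43.9% called (23.5% higher, 20.5% lower). Complex IV gave 0 higher and 7 lower in starved cells and 1 higher and 7 lower in serum-treated cells, and complex II 2 and 4 higher. Whether the fraction difference itself changed with serum was tested as an interaction, which called none of the 83 and 0% of all 9316 probe sets with limma, where 720 had an unadjusted p under 0.05. Among the 83, 1 had an unadjusted p under 0.05, Atp5o at 1.10 (adjusted p = 0.576), and 59 of 83 were above 0 with a median of 0.40, beside 0.064 over all. The count changed when replicate 2 of serum-treated undertranslated RNA was left out, and without replicate 1 of that group the median was 0.16. Each of these fits leaves 1 array in that group, and the share of all probe sets called in them is not given here. The fit has 4 residual degrees of freedom, and a count of 0 does not show that the fraction differences were alike in both serum states.

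The serum response was examined within undertranslated RNA. None of the 83 probe sets was called, beside 1.07% of all (0.29% higher, 0.784% lower). With limma, 8 of the 83 had an unadjusted p under 0.05, beside 1762 of all 9316. The median was -0.21, beside -0.037 over all probe sets, and values ran from -1.83 (Ndufaf1) to 1.14 (Atp5d). The smallest adjusted p was 0.112, for Atp5o at -0.99. This comparison rested on the 2 serum-treated arrays, whose replicates differed by a median SD of 0.47 over these probe sets, against 0.19 in starved undertranslated RNA. The count changed when either serum-treated undertranslated array was left out, which leaves 1 array in that group (the dimmest, replicate 1, when replicate 2 is left out). The share of all probe sets called in those fits is not given here, so no count is drawn from them. For Ndufaf1, the serum-treated arrays read 1.4 and 25.6 and the starved arrays 20.2 and 28.5, so 1 serum-treated array set its difference.

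The serum response in the brighter arrays used polyribosome and cytoplasmic RNA together, with the RNA pool as a term. None of the 83 was called, beside 0.891% of all 9316 (0.666% higher, 0.225% lower). An unadjusted p under 0.05 (limma) was found for 1091 of all probe sets and for 1 of the 83. That probe set was Ndufs4, an accessory subunit of complex I, at -0.67 (adjusted p = 0.307). It read 12.5 (starved) and 7.5 (serum-treated) in cytoplasmic RNA, and in polyribosome RNA 32.7 and 31.7 (starved) and 17.8 and 15.3 (serum-treated). The serum-treated polyribosome values of Ndufs4 were below the starved ones, and the share of all probe sets with such an order is not given here. Cytoplasmic RNA had 1 array per serum state, so overlap could not be judged there. Ndufs4 was above background on only 1 cytoplasmic array. The highest value was 0.43, for Atp5mpl, a small complex V subunit that read 1921.7 and 1338.0 (starved) and 2718.6 and 1727.2 (serum-treated) in polyribosome RNA. Its groups overlapped.

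The medians by complex in this comparison were 0.022 for complex I, -0.02 for II, -0.00094 for III, 0.067 for IV and 0.12 for V, and the median over the 83 was 0.038, beside -0.0092 over all. Polyribosome RNA alone gave none called among the 83 and 0% among all, where 161 of all had an unadjusted p under 0.05, with a median of 0.072 for the 83. In bulk RNA, fewer cells of a type and less RNA per cell cannot be told apart. Macrophage markers moved with serum in the same arrays, with 4 of 8 tested called higher, and their summed intensity was 1140 to 4550 in polyribosome RNA, 263 to 643 in cytoplasmic and 68.6 to 172 in undertranslated RNA. All 10 fibroblast markers were tested and none was called with serum.

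**Figure D4:**
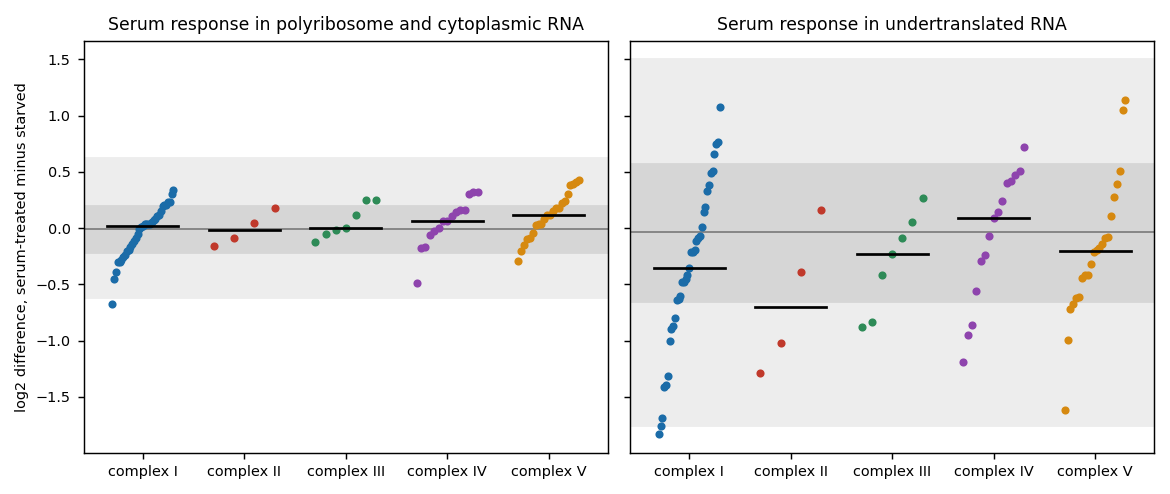
Serum-treated minus starved difference (log2, quantile normalized) of the 83 probe sets, by complex, in polyribosome and cytoplasmic RNA (left) and in undertranslated RNA (right). Each point is a probe set, black bars are medians of a complex, and dark and light bands span the 25th to 75th and the 5th to 95th percentile of all 9316 probe sets; on the left all but Ndufs4 (-0.67) lie within -0.62 to 0.62, and on the right they spread from -1.83 to 1.14.

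Polyribosome RNA was also set against unfractionated cytoplasmic RNA, which rests on 1 cytoplasmic array per serum state and in which cycloheximide treatment and pool cannot be told apart. Of the 83, 22 were higher and 4 lower in polyribosomes, or 31.3%, beside 26.4% of all probe sets (1350 higher and 1113 lower of 9316). The median was 0.28, beside 0.00075 over all. Fewer of the 83 were called when 1 cytoplasmic array was left out, and the share of all probe sets called in those fits is not given here. On the deposited scale 72 were higher and none lower, beside 75.8% and 0.934% of all. With control scaling the counts were 17 and 5, beside 8.22% and 12.7% of all, and with median centring 28 and 2, beside 17.5% and 8.9%. The higher probe sets were 10 of 35 in complex I, 2 of 4 in II, 3 of 7 in III, 3 of 15 in IV and 4 of 22 in V.

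Atp5o had the largest of these differences, 1.96 ± 0.18 (adjusted p = 0.000489), and Ndufb8 followed at 1.62 ± 0.32 (adjusted p = 0.00669), with 29.3 and 20.6 in cytoplasmic RNA. Sdhb and Sdha, the catalytic pair of complex II, were higher at 1.35 ± 0.26 and 1.30 ± 0.20, while the anchors Sdhc (-0.50 ± 0.23) and Sdhd (0.45 ± 0.24) were not called. The lowest were Ndufc1 at -1.03 ± 0.19 (adjusted p = 0.00446) and Uqcr10 at -0.74 ± 0.23 (adjusted p = 0.0442). Ndufc1, a small complex I subunit, read 448.5 and 420.8 in cytoplasmic RNA and 508.9 to 821.9 in polyribosome RNA, so its deposited-scale difference was 0.51, and that of Uqcr10 was 0.73.

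Undertranslated RNA against cytoplasmic RNA shares the cytoplasmic arrays with the comparison above, so the lists of calls are not independent. Of the 83, 24 were higher and 8 lower in undertranslated RNA, or 38.6%, beside 30.1% of all (14.4% higher, 15.7% lower), with a median of 0.43 beside 0.048. Fewer were called when 1 cytoplasmic array or replicate 1 of starved undertranslated RNA was left out. The share of all probe sets called in those fits is not given here. On the deposited scale 2 were higher and 46 lower, beside 1.06% and 57.8% of all. With median centring the counts were 14 and 22, beside 12.3% and 32.7%, and with control scaling none and 78, beside 0.0751% and 96.8%. Relative to the median of all probe sets, the median of these mRNAs was 0.063 higher under those 3 scalings. By complex, the quantile counts were 6 higher and 1 lower in I, 0 and 2 in II, 4 and 2 in III, 8 and 1 in IV, and 6 and 2 in V.

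Cox8b was called higher in this comparison (adjusted p = 0.00152), but its brighter probe set was above background on only 1 of the 2 cytoplasmic arrays, which read 10.8 and 3.8. The Cox6b2 probe set that was below background on both cytoplasmic arrays was at least 5.19-fold higher (adjusted p = 0.00459). Of the bright probe sets, Atp5j was higher at 2.89 ± 0.17 (adjusted p = 2.94e-05), Uqcrb at 2.56 ± 0.17, Ndufb3 at 2.47 ± 0.22 and Uqcrh at 2.38 ± 0.20. Uqcr11 was at least 1.83-fold lower, and Uqcrc1, above background on 3 of 4 undertranslated arrays, was lower at -3.05 ± 0.84 (adjusted p = 0.0253). Uqcrb is a case that was higher in both gradient pools than in cytoplasmic RNA, at 1.10 ± 0.20 in polyribosomes. It read 416.2 and 326.0 in cytoplasmic RNA, 260.7 to 811.4 in undertranslated and 1824.1 to 2915.8 in polyribosome RNA.

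Other genes of mitochondrial energy metabolism were described in the same polyribosome against undertranslated fit, from lists chosen by function. Each gene was given by its probe set with the highest mean level, and any others were not counted. The counts are relative to the distribution, as above. Of all 9316 probe sets, 28.7% were higher and 25.5% lower in this fit, and the lists were not tested against these shares. Of the electron carriers, Cyc1, the cytochrome subunit of complex III that the symbol rule leaves out, was higher at 2.90 ± 0.21, and Cycs, somatic cytochrome c, was lower at -1.18 ± 0.21. Of 10 assembly factors of complexes II to V, 4 were higher and 3 lower. Uqcc2 was above background on no undertranslated array and at least 1.92-fold higher (adjusted p = 0.000267), and Cox17, a copper chaperone, was lower at -3.14 ± 0.14. Among 16 tricarboxylic acid cycle genes 10 were higher and none lower, with a median of 1.42, and citrate synthase (Cs) differed by 1.77 ± 0.18 and fumarase (Fh1) by 1.84 ± 0.21. Mitochondrial ribosomal protein genes gave 23 higher and 12 lower of 58, with a median of 0.67, and import and carrier genes 6 and 9 of 26, with a median of -0.22.

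Outside mitochondria, the vacuolar ATPase, another proton pump of many subunits, had 7 higher and 3 lower of 13, with a median of 0.67. The shares of all probe sets were again 28.7% higher and 25.5% lower. Glycolysis had 7 and 1 of 12, with a median of 1.08, and cytoplasmic ribosomal proteins had 10 and 11 of 31, with a median of -0.26. All 7 tested regulators of oxidative phosphorylation genes were called, 4 higher and 3 lower, with Gabpa at 2.76 ± 0.34 (above background on 1 of 4 undertranslated arrays) and Esrra at -2.43 ± 0.36. None of the pathway lists in these last paragraphs had a member called with serum in polyribosome and cytoplasmic RNA, where 0.891% of all probe sets were called. No probe set was named for a mitochondrially encoded gene.

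The 15 probe sets that did not pass the filter on mean level were 7 of complex I and 8 of complex IV, and they left Cox5a, Cox7a1 and Cox8a with no probe set tested. These 3 genes read 0.2 to 12.3, and each of their probe sets was above background on at most 1 array. Of all 98 probe sets, 51 were above background on all 10 arrays and 8 on none, and 48 of 71 genes had a probe set above background on every array. A further 10 probe sets matched the rule through several symbols, mostly a gene with its pseudogene or duplicate, and were left out. Among them a probe set for Cox7c and a pseudogene read 3758.7 to 7006.8 in undertranslated RNA and 7929.0 to 9592.0 in polyribosome RNA, a difference of -0.50 ± 0.095 (adjusted p = 0.00274).

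Promoter sequence is a feature that the rule did not use. RefSeq promoters on GRCm38.p6, from 250 bases before to 50 after the transcription start, were matched for 58 of the 71 genes. The core of the TISU element, which lies at the start codon of mRNAs with very short leaders, was found on either strand in 2 of the 58 genes (3.45%), beside 0.755% of 27025 genes. The site of NRF-1, a transcription factor known for nuclear respiratory genes, was found in 5 (8.62%), beside 1.07%. The ETS site CCGGAAGT, to which GABP binds, was found in 4 (6.90%), beside 4.31%. A match is a description of these letters and not of binding. The windows with a TISU core are shown because that element concerns translation, and those with an NRF-1 site because it was the motif found in most member promoters. Each is 30 bases, 5' to 3' on the gene's strand, with the whole motif searched for in capitals.
Ndufa9, chr6:126849095-126849124, minus strand: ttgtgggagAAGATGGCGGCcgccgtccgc
Ndufs4, chr13:114388045-114388074, minus strand: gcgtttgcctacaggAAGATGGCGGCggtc
Atp5g2, chr15:102671070-102671099, minus strand: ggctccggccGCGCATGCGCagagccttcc
Atp5k, chr5:108434430-108434459, minus strand: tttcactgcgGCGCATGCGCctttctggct
Cox6a1, chr5:115349101-115349130, minus strand: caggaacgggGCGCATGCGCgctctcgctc
Ndufaf4, chr4:24897960-24897989, plus strand: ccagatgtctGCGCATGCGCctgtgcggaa
Uqcrc1, chr9:108936668-108936697, plus strand: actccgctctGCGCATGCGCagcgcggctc

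The motif positions were set beside the fraction differences without a test. The TISU core began 30 bases after the start in Ndufa9, which was higher in polyribosomes (1.67), and 36 bases after it in Ndufs4, which was not called (-0.038 ± 0.55). The NRF-1 site lay before the start in Atp5g2, Atp5k, Cox6a1 and Ndufaf4, at -42, -50, -162 and -113, and after it in Uqcrc1, at 31. Genes with the NRF-1 site included Uqcrc1 and Atp5g2, called higher, and Cox6a1, called lower, with Atp5k and Ndufaf4 not called. The ETS site was found in Cox8a, Ndufs3, Uqcr11 and Uqcrh, of which Ndufs3 and Uqcr11 were called higher and Uqcrh lower. Each motif that was present in more than 2 member promoters therefore occurred in genes of both directions.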

How the data were processed

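Array values were analysed in 10 samples of 6 groups. The labels' protocols describe linear amplification of the RNA, biotin labelling and Affymetrix arrays. The authors deposited a linear intensity for every probe set on each array; how probes were summarised or arrays scaled is not given in the sources used here. The table held 12488 rows, of which 66 were controls. Gene names came from the platform annotation (10833 probe sets with 1 symbol, 396 with several, 1193 with none).

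Each intensity was raised by 1.5 (the 10th percentile), which understates changes of dim probe sets, converted to log2 and quantile normalized over 10 arrays. A filter kept probe sets whose mean level exceeded the 25th percentile. limma 3.58.1 in R 4.3.3 (lmFit, eBayes with a variance trend) gave two-sided tests with Benjamini-Hochberg adjustment at 0.05 over all 9316 probe sets. The 4 gradient groups were fitted together (8 arrays, 4 residual degrees of freedom), and each comparison with cytoplasmic RNA was an additive fit over 6 arrays (3 residual degrees of freedom). The number of arrays limits the precision. The code was tested on simulated data.

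Genes given with values on each array were the highest and lowest of each complex among those above background on all gradient arrays, the highest and lowest against cytoplasmic RNA, complex II and the isoform families. Others were taken from the remaining members by size or function after their values were seen. The members, lists and fits were chosen with earlier results of these data known. Alternatives tried were scaling, pseudocount, filter, variance trend, a replicate block, 1 fit of all arrays, leaving out each array, and 3 restrictions of probe sets chosen after the data were seen. Protein length, a planned description, was not analysed here.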

Additional observations from a re-analysis of the deposited data

How the results depend on the processing

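The count of 50 probe sets called between polyribosome and undertranslated RNA became 76 as deposited and 79 with hybridization control scaling. It was 33 without probe sets marked _f, _r, _i or _s (chosen after the data were seen). Against cytoplasmic RNA, the 26 polyribosome calls became 72 as deposited and 6 with all 10 arrays in 1 fit, and 1 to 24 without single arrays; the 32 undertranslated calls became 78 with control scaling, 21 with no variance trend and 21 without the marked probe sets, and 13 to 39 without single arrays. The cause of these shifts was not tested beyond the scaling itself. Without single arrays the serum calls in undertranslated RNA ranged from 0 to 22 and the interaction calls from 0 to 10. Other pseudocounts and filters left all 6 counts within 1.5 times.

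Directions of named members turned with scaling. For polyribosome against undertranslated RNA, the values as deposited and with control scaling were 1.42 and 1.74 for Ndufb3, 1.64 and 1.95 for Ndufa10, 1.22 and 1.53 for Uqcrh, 3.81 and 4.13 for Cox5b, 1.32 and 1.63 for Cox8c, 0.41 and 0.72 for Atp5j, and 0.90 and 1.21 for Atp5d. They were 3.82 and 4.13 for Cox7a2l, 0.90 and 1.22 (brighter probe set) and 0.74 and 1.05 (dimmer) for Cox8b, 1.43 and 1.74 (brighter) and 0.61 and 0.92 (dimmer) for Atp5g1, and 1.70 and 2.01 for the dimmer set of Atp5g2. They were 1.45 and 1.76 for the dimmer set of Cox4i1, 3.00 and 3.31 for Cox7a2, 1.97 and 2.28 for Cox6b1, and 2.28 and 2.59 for Cox6a1. Median centring gave 1.35 for Cox5b, 1.36 for Cox7a2l, 0.54 for Cox7a2, 0.59 for Cox7b, 0.99 for Ndufv1, 0.84 for Ndufa5, 0.30 for Ndufa2 and 0.10 for Ndufc1. For polyribosome against cytoplasmic RNA the deposited values were 0.51 for Ndufc1 and 0.73 for Uqcr10. For undertranslated against cytoplasmic RNA control scaling gave -0.071 for Cox6b2, and the median over members was -1.49 as deposited, -0.28 with median centring and -3.39 with control scaling.

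With the replicate number as a block, 49, 24 and 33 probe sets were called in the 3 pool comparisons (main counts 50, 26 and 32) and 0 in the interaction and serum comparisons. The correlation of replicate differences was 0.275 for the polyribosome pair of groups and 0.0171 to 0.0535 for the other pairs, so the numbers were not taken to pair samples.

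The dim undertranslated arrays limit the depth of these comparisons. In a fit restricted to probe sets above background on all gradient arrays, 37 of the 53 oxidative phosphorylation probe sets were called. Of these, 36 were among the 50 and 1 (Ndufb2) was not. The share of all probe sets called in that fit is not given here.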
